A study of Mus musculus with 162 samples.

Results

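Interferon-induced genes are the transcripts that cells raise when interferons bind their receptors, and 43 of them, chosen by name from the 46078 genes listed for each library, were followed across mouse skin, trigeminal ganglia and spinal cord. All 43 identifiers were found by symbol, and every gene had enough counts to enter all 20 comparisons of MC903 with its vehicle. The mice were adult male C57BL/6. MC903 (calcipotriol), a vitamin D analog that produces an atopic dermatitis-like skin inflammation, was painted on at 0.2 mM once daily, on the cheek for skin and trigeminal ganglia and on the rostral back for spinal cord, and ethanol was painted on control animals. Wild-type mice without injection gave skin and ganglia at days 1, 2, 5 and 8 and spinal cord at day 8. Day 1 stands for samples taken only hours after the first treatment. Other wild-type mice of day 8 received either 250 µg of aGr1, an antibody to Gr1 given to deplete neutrophils, or PBS, the vehicle of that antibody. TSLPR KO mice lack Crlf2, a subunit of the receptor for the keratinocyte cytokine TSLP, and gave skin and ganglia at days 8 and 12. BLT1 KO mice lack Ltb4r1, a leukotriene B4 receptor, and gave skin at day 8. The deleted exons of either knockout are not given in the sources used here. Uninjected wild-type libraries of day 12 were not used here.

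Type I interferons act through the receptor chains Ifnar1 and Ifnar2 and the kinases Jak1 and Tyk2 to activate a complex that holds Stat2 and Irf9 and binds the interferon-stimulated response element (ISRE). Type II interferon, made from Ifng mainly by T and NK cells, acts through Ifngr1 and Ifngr2, and many of its target genes carry the gamma-activated site (GAS). In skin these genes are part of the defence against viruses and intracellular bacteria, and many respond to both kinds of interferon. The 43 genes were ordered by role. There were 11 genes of the Ifit, Oas and Mx families, which bind or degrade viral RNA or trap viral particles, and 14 GBP and IRG genes, which encode guanylate-binding proteins and other GTPases that attack vacuoles holding pathogens. A further 4 encode sensors of foreign nucleic acid, 4 encode transcription factors, 3 act in antigen processing, and 7 are other effectors.

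The genomic sequence just before the genes was read for the letters of these elements. RefSeq promoters of GRCm38.p6, each from 250 bases before to 50 bases after the start of a transcript, were given for 32 of the 43 genes. They were searched on both strands for the ISRE core GAAANNGAAA (TTTCNNTTTC on the other strand) and the GAS core TTCNNNGAA, which reads the same on either strand. The ISRE core was in the promoter of 20 of 32 genes (62.5%), against 3.99% of 27025 genes with a promoter. The GAS core was in 11 (34.4%), against 9.55%, and both were in 8 (25%), against 0.54%. Among the GBP and IRG genes, 9 of 10 with a promoter held the ISRE core and 6 held both. For the Ifit, Oas and Mx genes the numbers were 5 of 8 and 1. The families were not tested against each other. A match is a description of letters, not of a bound site, and overlapping matches were counted as 1 gene.

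Stretches of 60 bases are shown for genes that the results below turn on, 5′ to 3′ in the direction of the gene, with the letters of the matched cores in capitals. Ifit1 (chr19:34640769-34640828, plus strand), Isg15 (chr4:156200856-156200915, minus strand), Oas1a (chr5:120907515-120907574, minus strand) and Gbp2 (chr3:142620579-142620638, plus strand) held ISRE cores. Oas1a also held a GAS core, which begins at position -98 from the start of the transcript and lies outside the stretch shown. Tgtp1 (chr11:48992295-48992354, minus strand), Igtp (chr11:58199491-58199550, plus strand) and Irgm2 (chr11:58214882-58214941, plus strand) are shown because the GAS core begins 11 bases before the ISRE core in each. Irf1 (chr11:53769898-53769957, plus strand) held the GAS core without the ISRE core.
Ifit1: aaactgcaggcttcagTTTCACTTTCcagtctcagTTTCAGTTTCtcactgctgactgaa
Isg15: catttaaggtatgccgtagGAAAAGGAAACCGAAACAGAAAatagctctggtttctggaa
Oas1a: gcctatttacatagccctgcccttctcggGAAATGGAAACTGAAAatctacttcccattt
Gbp2: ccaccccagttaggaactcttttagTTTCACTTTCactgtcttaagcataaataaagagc
Tgtp1: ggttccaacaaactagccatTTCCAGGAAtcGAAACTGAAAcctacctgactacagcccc
Igtp: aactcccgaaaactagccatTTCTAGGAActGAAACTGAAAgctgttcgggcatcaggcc
Irgm2: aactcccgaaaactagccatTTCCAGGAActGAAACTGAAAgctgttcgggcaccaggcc
Irf1: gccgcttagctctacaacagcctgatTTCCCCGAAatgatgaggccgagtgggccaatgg

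Poly(A) RNA of 144 libraries was used, with 61 from skin, 56 from trigeminal ganglia and 27 from spinal cord and 15931871 to 67342879 counts on genes in each. The unit of level is cpm, in which every library's counts on genes are brought to one common total, without TMM scaling. Fold changes come from fits with TMM scaling, whose factors ran from 0.742 to 1.18, so that they can depart from the ratio of the cpm values. A gene was called when its adjusted p in edgeR's quasi-likelihood test was under 0.05 in skin and spinal cord or under 0.1 in trigeminal ganglia. The targeted genes were read first. Crlf2 was at 0.0691 to 0.277 cpm in the TSLPR KO skin of day 8 and 0.405 to 1.34 cpm in that of day 12, against 2.24 to 15.4 cpm in uninjected wild-type skin of day 8. In ganglia it was at 0 to 0.228 cpm in the libraries labelled TSLPR KO of day 8 and 0.907 to 2.06 cpm in those of day 12, the latter within the wild-type range of 0.117 to 7.58 cpm. Ltb4r1 was at 2.33 to 15.1 cpm in the libraries labelled BLT1 KO, within the 2.52 to 77.6 cpm of wild-type skin, so its counts do not check that label. Several libraries stood apart. The day 2 skin library of MC903 replicate 3 had a sum of 1257 cpm over 8 sensory neuron markers, where the other 4 libraries of that day were at 12.6 to 14.6 cpm. In skin of aGr1-injected mice, the ethanol libraries held 333, 140, 17.5 and 2.78 cpm over 4 B cell markers and 684, 627, 84.6 and 189 cpm of the kallikrein gene Klk1, against 1.91 to 2.92 cpm and 0.137 to 4.35 cpm in the MC903 libraries. Counts of called genes with single libraries left out are given below, singly or as ranges. Medians are given without the day 2 library and without aGr1 ethanol replicate 4, but not without the other aGr1 ethanol libraries.

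In wild-type skin at day 8, 39 of 43 interferon-induced genes rose with MC903 and none fell, where 12.2% of all tested genes rose. Their median log2 fold change was 1.83, with a range from 0.60 to 3.35, and the median of all tested genes was -0.03. Bulk RNA cannot tell more cells of a type from more RNA per cell. The mean of log2(cpm + 0.5) over the 43 genes was 4.81, 3.69 and 6.01 in the MC903 libraries of cohort A, which carry their own style of label, and 3.43 and 4.12 in those of cohort B. In cohort A the MC903 libraries at 4.81 and 6.01 are both labelled replicate 1, and the ethanol libraries tagged skin3 and skin7 are both labelled replicate 3. The labels do not say whether these are separate animals. The 6 ethanol libraries ran from 2.41 to 3.10 with a median of 2.90, below every MC903 library. The MC903 libraries spanned more than the whole ethanol range, and the cohort A library tagged skin4 was the highest MC903 library for each of the 43 genes. In cohort A alone 39 of the 43 genes were called, against 4355 of 24850 tested genes, and the median was 2.41. In cohort B alone 23 were called, against 2258 of 24128, and the median was 0.90. The cohorts were not tested against each other. Leaving out 1 library gave 29 to 40 called genes.

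**Figure D1:**
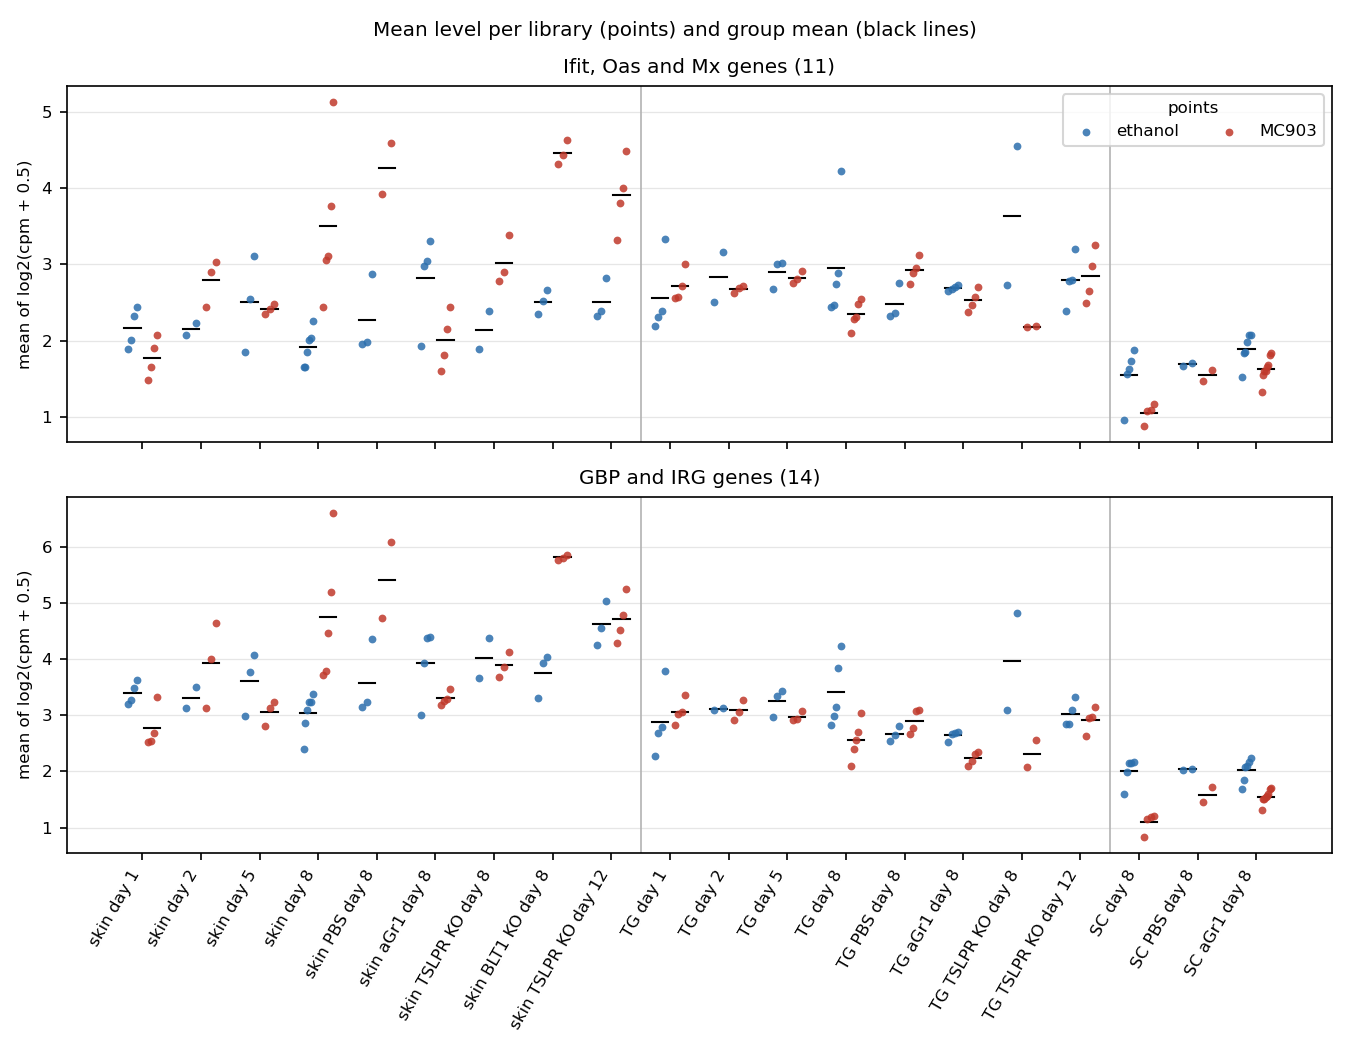
Mean log2(cpm + 0.5) of 11 Ifit, Oas and Mx genes and of 14 GBP and IRG genes in every library, with the 20 tissue, genotype, injection and day groups along the axis. Each point is a library (blue ethanol, red MC903) and black lines are group means. In skin the MC903 points lie above the ethanol points at day 8 in uninjected wild-type, PBS-injected and BLT1 KO mice. In wild-type mice at day 2 and TSLPR KO mice at days 8 and 12 only the Ifit, Oas and Mx means separate (at day 12, 3.32 to 4.48 against 2.32 to 2.82).

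Of the Ifit, Oas and Mx genes, 9 of 11 rose at day 8, with a median of 1.91. Ifit1, which binds RNA that lacks the cap methylation of host transcripts, was at 49.1, 11.5 and 101 cpm in cohort A and 6.77 and 27.1 cpm in cohort B after MC903. In the ethanol libraries Ifit1 ran from 1.82 to 5.14 cpm with a median of 4.14 cpm. The groups did not overlap, and Ifit1 rose by 3.16 ± 0.61 on the log2 scale (± SE here and below, with an adjusted p of 0.0027 by edgeR's quasi-likelihood test). Oasl2, an oligoadenylate synthetase-like protein, was at 75.4, 25.9, 177, 19.3 and 51.2 cpm against 6.79 to 12.1 cpm with a median of 9.25 cpm (2.81 ± 0.49, adjusted p 0.00127). Oas1a, which makes a messenger that activates an antiviral RNase, had the smallest adjusted p of the 43 genes. It was at 29.2, 9.89, 48.3, 7.49 and 9.54 cpm against 2.03 to 3.76 cpm with a median of 2.69 cpm (2.65 ± 0.40, adjusted p 0.000516). All MC903 libraries lay above all ethanol libraries for both Oas genes. Mx1, a gene of the dynamin-like GTPase family, was at 17.3, 5.09, 37.2, 4.52 and 6.29 cpm against 1.1 to 3.46 cpm (2.35 ± 0.58, adjusted p 0.0108). Oas2, of the same enzyme family as Oas1a, was at 19.4, 15.5, 66, 13.9 and 14.3 cpm against 4.74 to 9.8 cpm (1.83 ± 0.37, adjusted p 0.00345). Neither gene overlapped between treatments. The genes of this family that missed the threshold were Ifit2 (0.60 ± 0.32, adjusted p 0.195) and Ifit3b (0.87 ± 0.44, adjusted p 0.173), whose groups overlapped. Ifit3 and Ifit3b are near-identical copies, so the split of reads between them is uncertain. Ifit3 was at 8.02, 11.9, 29.6, 5.2 and 6.38 cpm against 4.32 to 5.87 cpm (1.05 ± 0.35, adjusted p 0.0473), and its 5.2 cpm in cohort B replicate 1 lay within the ethanol range.

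The GBP and IRG genes rose in 12 of 14 cases, with a median of 2.36. Gbp2, a guanylate-binding protein, had the largest log2 fold change of the 43 genes, at 3.35 ± 0.69 (adjusted p 0.00388). It was at 506, 57.8 and 1144 cpm in cohort A and 66.5 and 138 cpm in cohort B after MC903, against 15.7 to 34.9 cpm with a median of 29.6 cpm. The lowest MC903 library lay above the highest ethanol library by less than the spread within either MC903 cohort. Gbp5, a guanylate-binding protein linked to inflammasome assembly, was at 26.4, 11.4, 77.1, 10.8 and 17.6 cpm against 3.33 to 5.66 cpm (2.47 ± 0.43, adjusted p 0.00127). Iigp1, a GTPase that disrupts the vacuole of Toxoplasma, was at 89, 21, 290, 27.3 and 48.9 cpm against 6.01 to 19 cpm (2.70 ± 0.65, adjusted p 0.00997). Igtp, a regulatory GTPase of the same family, was at 47.3, 8.86, 109, 9.07 and 22.3 cpm against 4.09 to 7.76 cpm (2.34 ± 0.56, adjusted p 0.00961). Neither IRG gene overlapped between treatments. Irgm1, which regulates the other IRG proteins, was at 119.2, 27.6, 229, 29.9 and 59.9 cpm against 10.7 to 20.3 cpm (2.43 ± 0.49, adjusted p 0.00338). Gbp7, another guanylate-binding protein, was at 42.3, 21.6, 124.7, 24.8 and 36.9 cpm against 10.2 to 19.9 cpm (1.76 ± 0.42, adjusted p 0.00943). Both genes lay apart between treatments. Gbp3 (1.14 ± 0.54, adjusted p 0.151) and Gbp6 (1.35 ± 0.50, adjusted p 0.0668) did not pass. Tgtp1 and Tgtp2 are close copies, and their log2 fold changes of 2.47 ± 0.61 and 2.37 ± 0.57 cannot be treated as independent.

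All 4 sensors, all 4 transcription factors, all 3 antigen-processing genes and all 7 other effectors rose at day 8, with medians of 1.59, 1.57, 1.44 and 1.71. Zbp1, a sensor of Z-form nucleic acid, was at 20.4, 8.66, 62.1, 6.36 and 12.2 cpm after MC903 and 1.92 to 4.39 cpm after ethanol (2.62 ± 0.55). Ddx58, which encodes the RNA sensor RIG-I, was at 39.4, 34.5, 92.9, 32.7 and 46.6 cpm against 19.5 to 28.8 cpm (1.11 ± 0.23), and neither sensor overlapped between treatments. Irf1, a factor with a GAS core in its promoter, was at 69.4, 26.5, 137, 25.2 and 39.7 cpm against 10.3 to 17.3 cpm (1.90 ± 0.36, adjusted p 0.00238). Irf7, which drives the amplification of type I interferon, was at 21.8, 15, 54.8, 11.4 and 16.1 cpm against 5.31 to 9.29 cpm (1.64 ± 0.34, adjusted p 0.00371). Stat2, which binds the ISRE in a complex with Irf9, was at 57.1, 27.3, 114.1, 27.6 and 42.4 cpm against 14.6 to 21.7 cpm (1.50 ± 0.29). Its partner Irf9 rose by 1.24 ± 0.23, and the groups of all 4 factors were apart. Tap1, a subunit of the peptide transporter for MHC class I, was at 105, 51.9, 170, 46.4 and 52.5 cpm against 35.7 to 50 cpm and overlapped (0.91 ± 0.27, adjusted p 0.0274). Its neighbour Psmb9, an immunoproteasome subunit on the other strand, was at 15.5, 6.18, 22.3, 5.58 and 5.26 cpm against 2.35 to 4.71 cpm (1.44 ± 0.33). Psmb8, another such subunit, was at 52.7, 28.2, 84.6, 18 and 21 cpm against 8.96 to 16.2 cpm (1.53 ± 0.31). The proteasome genes lay apart between treatments, unlike Tap1. Isg15, a ubiquitin-like modifier, was at 57.4, 8.48, 87.8, 6.57 and 23.6 cpm against 2.85 to 5.47 cpm (3.06 ± 0.62, adjusted p 0.00343). Rsad2, which encodes viperin, was at 26, 9.83, 40.5, 5.03 and 15.7 cpm against 2.7 to 4.54 cpm (2.38 ± 0.44, adjusted p 0.00208). Both were higher in every MC903 library than in any ethanol library. Usp18, which removes Isg15 from proteins and damps type I receptor signalling, was at 28.5, 9.29, 42.4, 8.07 and 16.1 cpm against 4.47 to 10.1 cpm (1.40 ± 0.42, adjusted p 0.0281). Bst2, a tether of budding virus, was at 26.8, 22.5, 60.7, 7.87 and 10.9 cpm against 5.82 to 11.3 cpm (1.32 ± 0.36, adjusted p 0.0185). Usp18 overlapped through 1 MC903 library of each cohort and Bst2 through both of cohort B.

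**Figure D2:**
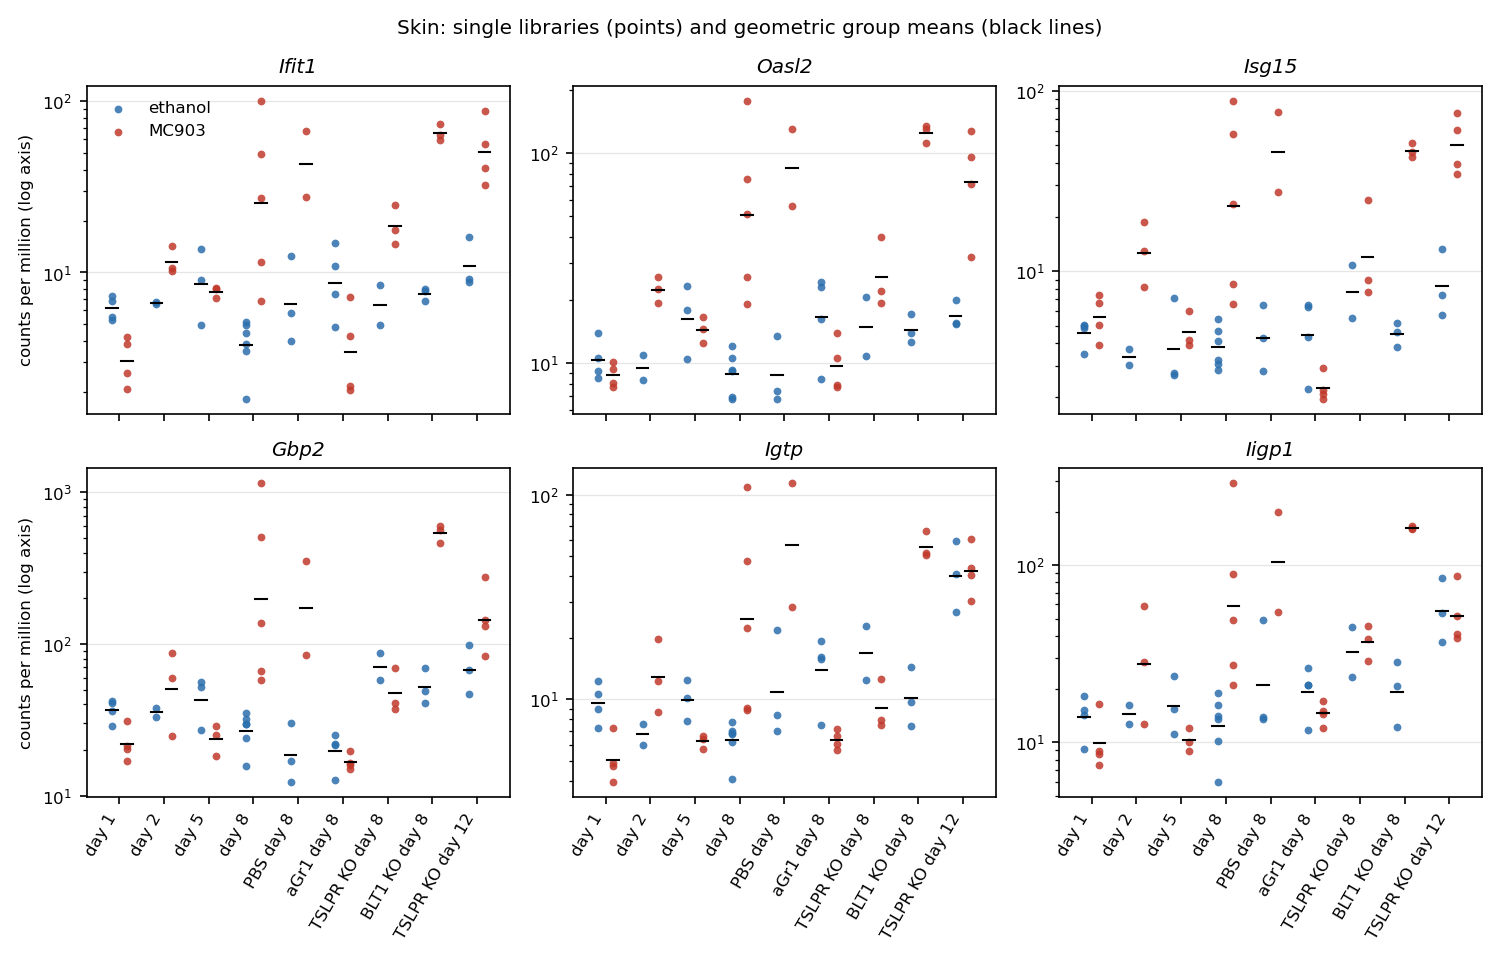
Expression in cpm on a log axis of Ifit1, Oasl2, Isg15, Gbp2, Igtp and Iigp1 in each skin library of 9 comparisons. Points are libraries (blue ethanol, red MC903) and lines are geometric means. In BLT1 KO skin the red points of each gene lie close together and far above the blue ones (Ifit1 at 59.4 to 73.8 against 6.79 to 8 cpm), whereas Igtp and Iigp1 overlap between treatments in TSLPR KO skin at day 12.

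The other genes of the pathway were read from lists of ligands, receptors, regulators and sensing genes. At day 8 in skin, 3 of 6 receptor genes, 5 of 8 regulators and 4 of 8 sensing genes rose, and none of them fell. Socs1, a feedback inhibitor of JAK kinases, was at 16.2, 6.5, 36.4, 12.8 and 16.1 cpm against 2.1 to 4.88 cpm (2.31 ± 0.37). Most ligand genes were near the limit of detection. Over the 61 skin libraries Ifnb1, Ifna1, Ifna2, Ifna4, Ifne, Ifnl2 and Ifnl3 each had counts in at most 3, with at most 2 counts in any, and Ifna5 had none. Ifnk, a keratinocyte type I interferon, had counts in 27 with at most 8, Ifnz in 55 with at most 16, and Ifng in 41 with at most 90. In ganglia Ifng had at most 2 counts, in 9 of 56 libraries, and in spinal cord at most 2, in 2 of 27. The ligands other than Ifng, Ifnk and Ifnz stayed under a floor of 3 counts in every skin library, and a change of theirs was not detectable at this depth. Ifng was at 0.918, 0.173, 2.5, 0 and 0.395 cpm after MC903, where the library at 2.5 cpm was again the one tagged skin4, and at 0 to 0.215 cpm after ethanol (3.37 ± 1.14, called). Some marker sums moved with the result as well. The sums in MC903 and ethanol skin were 28.4 to 69.8 and 8 to 15.9 cpm over 10 neutrophil markers, 5.18 to 23.4 and 1.16 to 2.04 cpm over 4 NK cell markers, 11330 to 22630 and 5928 to 8171 cpm over 5 keratinocyte markers, and 128.7 to 247.3 and 74.3 to 121.6 cpm over 3 endothelium markers, all without overlap. The 7 macrophage markers overlapped at 935 to 2204 and 525.7 to 1033 cpm, and 4 of 4 muscle markers fell. Sums also overlapped for 8 T cell markers, at 21.5 to 45.6 and 19.5 to 26.8 cpm, and for the leukocyte marker, at 31.4 to 84.6 and 17.3 to 47.7 cpm. Their part in the rise of the interferon-induced genes was not tested.

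Before day 8, 1 of the 43 genes passed as higher at day 1 and none did at days 2 and 5. At day 1, 1 of 43 genes rose and 16 fell, where 5.51% and 7.47% of all tested genes did, and the median log2 fold change was -0.52. The fall took in 7 of 14 GBP and IRG genes and 3 of 11 Ifit, Oas and Mx genes. Gbp2 was at 20.4, 21.2, 16.8 and 31.1 cpm after MC903 and 36.1, 42.1, 40.6 and 28.7 cpm after ethanol (-0.76 ± 0.14), with the highest MC903 library above the lowest ethanol library. Igtp was at 3.96, 4.71, 4.88 and 7.21 cpm against 7.22, 12.3, 10.6 and 8.95 cpm (-0.95 ± 0.20). Ifit1 was at 2.58, 3.82, 2.08 and 4.2 cpm against 5.29, 5.52, 7.31 and 6.82 cpm, without overlap (-1.04 ± 0.23, adjusted p 0.0182). Irf1 also fell (-0.70 ± 0.13, adjusted p 0.00946). The gene that rose was Irf7, at 14, 14.4, 12.1 and 16.1 cpm against 6.39, 8.21, 7.31 and 8.34 cpm (0.85 ± 0.14, adjusted p 0.00617). The groups of Irf7 lay fully apart, in the direction opposite to Irf1 and Irf9 in the same libraries. Ifngr1, Ifnar2 and Jak1 fell at day 1 as well (-0.47, -0.77 and -0.43). The count of 17 called genes dropped to 7 without MC903 replicate 1, 10 without MC903 replicate 2, 11 without ethanol replicate 2 and 8 without ethanol replicate 3.

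At day 2 none of the 43 genes, and 0% of all tested genes, passed. At an unadjusted p under 0.05 there were 3 of the 43, against 1190 of 24580 tested genes. DESeq2 called 1 of the 43, against 264. The log2 fold change was above 0 for 42 of 43 genes, with a median of 0.61. Isg15 was at 18.8, 8.16 and 12.9 cpm after MC903 and 3.73 and 3.01 cpm after ethanol, without overlap (1.92 ± 0.49, adjusted p 0.688). Oasl2 was at 25.7, 19.4 and 22.5 cpm against 11 and 8.3 cpm, also without overlap (1.17 ± 0.32, adjusted p 0.793). Without MC903 replicate 3, the library with sensory neuron transcripts, the log2 fold change was above 0 for 43 of 43 genes with a median of 0.89, and no gene was called. The effect at day 2 was not tested against that at day 8. At day 5, 6 genes fell and none rose, where 6.78% of all tested genes fell, and the median was -0.39. The 6 were Gbp2 (-0.96), Gbp3 (-0.92), Igtp (-0.78), Ifit3b (-1.06), Ifih1, the sensor MDA5 (-0.70), and Usp18. Usp18 was at 5.38, 6.41 and 7.24 cpm against 20, 13.2 and 9.14 cpm, with no overlap and with a wide spread among the ethanol libraries (-1.22 ± 0.24, adjusted p 0.0161). Each library mattered to the count of 6 at day 5. It was 1, 1 and 2 without MC903 replicates 1, 2 and 3, and 2, 3 and 11 without ethanol replicates 1, 2 and 3.

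The change between days was tested directly. The MC903 effect was higher at day 8 than at day 1 in 39 of 43 genes, where 11.2% of all tested genes had such a difference, with a median difference of 2.22. Irf7, which had already risen at day 1, was among the 4 without a called difference, together with Ifit2, Ifit3b and Gbp3. Against day 5 the effect at day 8 was higher in 11 genes, where 0.706% of all tested genes were, with a median difference of 2.08. Gbp2 had the largest difference from day 5 (4.32 ± 0.98), and Oasl2 differed by 3.12 ± 0.71. This comparison held 42 of the 43 genes at an unadjusted p under 0.05, against 4376 of 27187 tested genes. It was sensitive to single libraries. The 11 became 0 without any of the 3 MC903 libraries of day 5, without its ethanol replicates 1 or 2, or without the day 8 ethanol libraries tagged skin6 or skin7 or cohort B ethanol replicate 2. Without the day 8 libraries tagged skin1 and skin3 and cohort B MC903 replicate 2 it became 1, 2 and 2, and without the library tagged skin2 and cohort B MC903 replicate 1 it became 19 and 22. Cohort labels exist at day 8 only, so that cohort and day cannot be told apart.

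**Figure D3:**
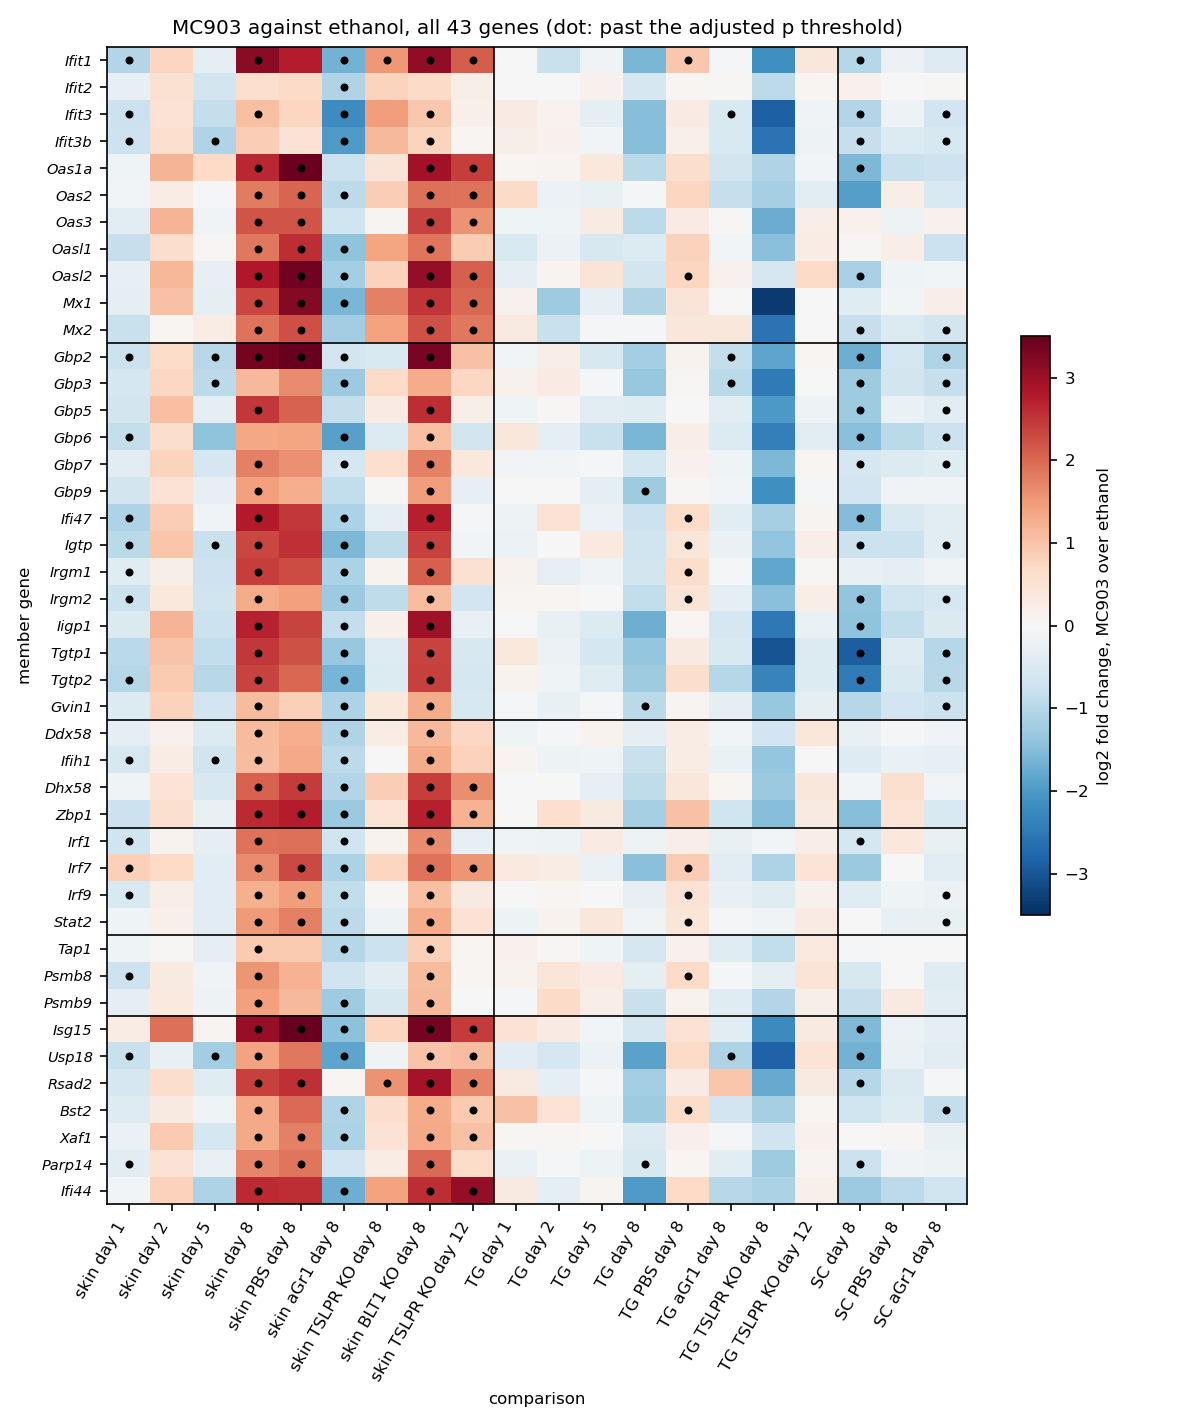
Log2 fold change of MC903 against ethanol for each of the 43 genes (ordered by role) in each of 20 comparisons, with red higher and blue lower after MC903. A dot marks a gene past the adjusted p threshold of its tissue. The dense dots are those of skin at day 8 in uninjected (39 genes higher) and BLT1 KO mice (41 higher), of aGr1-injected skin (35 lower) and of spinal cord of uninjected mice (22 lower).

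In PBS-injected wild-type mice at day 8, skin showed a rise too, whose size was not tested against that of uninjected mice. All 43 log2 fold changes were above 0, with a median of 2.02, and 17 genes rose, where 3.26% of all tested genes did. Of the 17, 7 were Ifit, Oas and Mx genes and 1, Gbp2, was a GBP or IRG gene, although the medians of the families were 2.26 and 2.05. Oasl2 was at 56.1 and 130 cpm after MC903 and 7.36, 13.6 and 6.76 cpm after ethanol (3.38 ± 0.46, adjusted p 0.0149). Isg15 was at 27.4 and 76 cpm against 2.82, 6.47 and 4.27 cpm (3.56 ± 0.52, adjusted p 0.0183). Gbp2 was at 84.9 and 355 cpm against 16.8, 30 and 12.4 cpm (3.53 ± 0.65, adjusted p 0.0381). The groups were apart for all of these, and the MC903 libraries differed from each other by more than the ethanol libraries did. Igtp, at 28.2 and 113.6 cpm against 8.39, 21.8 and 7.03 cpm, did not pass (2.57 ± 0.69, adjusted p 0.113). With 2 and 3 libraries the count depended on each of 4 of them. It was 0 without MC903 replicate 2 or ethanol replicate 1, 1 without ethanol replicate 3, and 39 without ethanol replicate 2. Without MC903 replicate 2 the median was 1.19, and that of the GBP and IRG genes was 1.06. A lone MC903 library was assumed to vary as the ethanol libraries did.

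In aGr1-injected wild-type mice at day 8 the direction was the reverse. In skin 35 of 43 genes fell with MC903 and none rose, where 17.5% of all tested genes fell, with a median log2 fold change of -1.10. The TMM factors were 1.12 to 1.18 in the MC903 libraries and 0.927, 0.770, 1.12 and 0.742 in ethanol replicates 1 to 4. The log2 fold changes here therefore lie below those of the cpm values. Ifit3, an Ifit1 partner, was at 2.19, 1.82, 3.91 and 5.5 cpm after MC903 and 12.5, 15.4, 12.8 and 6.74 cpm after ethanol (-2.19 ± 0.39, adjusted p 0.00292). Usp18 was at 3.24, 2.49, 3.08 and 4.26 cpm against 8.69, 12.9, 9.08 and 5 cpm (-1.83 ± 0.30, adjusted p 0.00213). Igtp was at 5.62, 6.05, 6.6 and 7.19 cpm against 15.7, 19.3, 16.1 and 7.48 cpm (-1.57 ± 0.26, adjusted p 0.00201). None of these 3 genes overlapped, and ethanol replicate 4 was the low ethanol library for each. Isg15 was at 2.1, 2.21, 1.96 and 2.92 cpm against 4.33, 6.33, 6.51 and 2.22 cpm and overlapped through that library (-1.42 ± 0.30). Gbp2 was at 15.9, 19.8, 16.3 and 14.9 cpm against 25.2, 21.6, 21.9 and 12.6 cpm (-0.65 ± 0.18), also overlapping. Rsad2 was the gene with a log2 fold change above 0, at 11.3, 9.53, 5.82 and 13.9 cpm against 8.73, 9.87, 7.59 and 3.78 cpm (0.06, adjusted p 0.903). The count of 35 became 16 without MC903 replicate 1 or 2, 22 without MC903 replicate 3 and 20 without ethanol replicate 2. Without ethanol replicate 4 it was 42, with a median of -1.29.

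Markers of other cells moved with this result. In aGr1-injected skin 4 of 4 B cell markers and 7 of 8 T cell markers fell with MC903, none of either list rose, and the T cell sum was 101, 65.5, 24.1 and 10.9 cpm in the ethanol libraries against 9.45 to 16.2 cpm in the MC903 libraries. The B cell sum, given above, was high in the ethanol libraries that were also high for the interferon-induced genes, while ethanol replicate 4, with 2.78 cpm of B cell markers but 189 cpm of Klk1, had a mean over the 43 genes of 2.80, within the 2.77 to 3.27 of the MC903 libraries. The other ethanol libraries were at 3.97, 4.08 and 3.74. The part of these markers was not tested. The neutrophil marker sums in aGr1-injected skin were 37.8, 42.4, 46.9 and 79.2 cpm after MC903, within the range of uninjected and PBS-injected MC903 skin together except for the last, and 6 of 9 neutrophil markers rose. In ethanol replicate 4 the sum was 190 cpm, of which Ltf, the lactoferrin gene, made up 185 cpm. Among the pathway genes of the same skin, Socs1 (0.95) and Socs3 (1.63), feedback inhibitors of JAK kinases, rose.

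**Figure D4:**
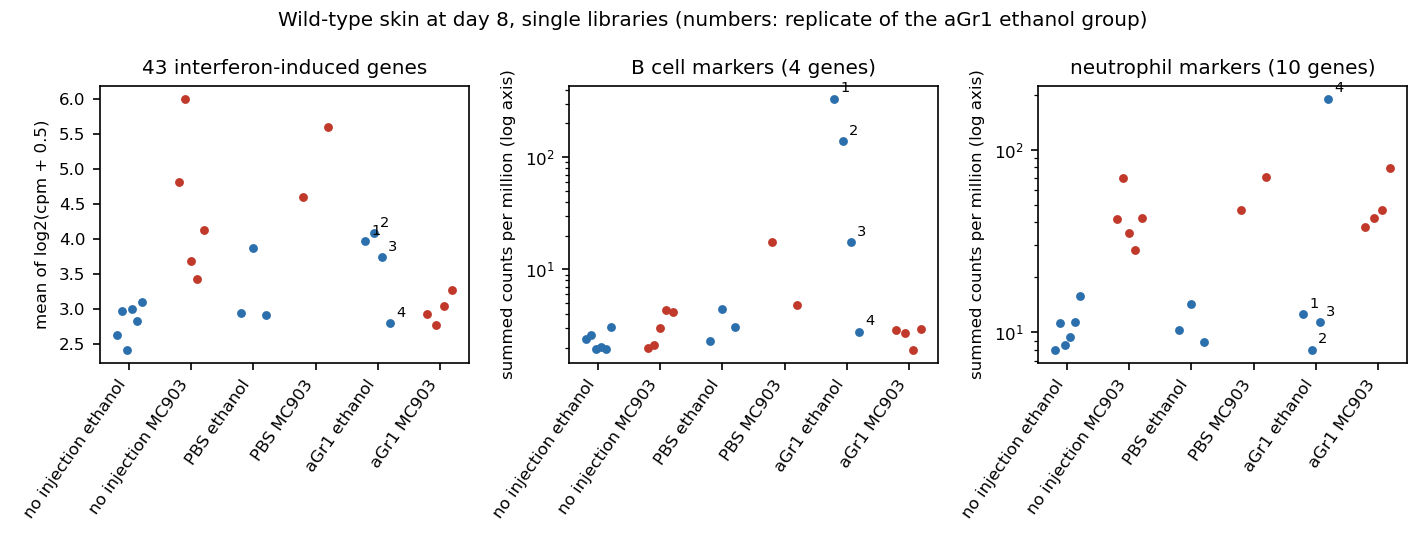
Wild-type skin of day 8 without injection, with PBS and with aGr1. The panels show the mean log2(cpm + 0.5) of the 43 genes, the summed cpm of 4 B cell markers and the summed cpm of 10 neutrophil markers (log axes), with a point for each library (blue ethanol, red MC903) and the aGr1 ethanol replicates numbered. The ethanol replicates 1, 2 and 3 of aGr1 mice are high for the interferon-induced genes (3.97, 4.08 and 3.74) and for B cell markers (333, 140 and 17.5 cpm), and replicate 4 is low for both (2.80 and 2.78 cpm).

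The MC903 effect in aGr1-injected skin differed from that in uninjected skin in 41 of 43 genes, all lower, where 3.36% of all tested genes were lower, with a median difference of -2.87. The differences were -4.80 ± 0.89 for Ifit1, -4.48 ± 0.82 for Isg15 and -3.99 ± 0.67 for Oasl2. Ifit2 and Gbp3 were not called. Leaving out each library in turn gave 34 to 43 called genes. A median difference without the aGr1 ethanol libraries high in B cell markers is not given. Set against PBS-injected mice, which share the injection, the median difference was -2.91. In that fit 19 of the 43 genes were called, against 62 of 26712 tested genes. The ethanol arms differ between these experiments as well as the MC903 arms, and the injection cannot be told apart from the set of animals.

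In TSLPR KO skin none of the GBP and IRG genes passed at day 8 or day 12, and the difference between the families was not tested. At day 8, 2 of 43 genes rose and none fell, where 1.31% of all tested genes rose, with a median of 0.28. The 2 were Ifit1, at 24.8, 14.6 and 17.8 cpm against 8.5 and 4.92 cpm (1.52 ± 0.31, adjusted p 0.0357), and Rsad2, at 11.9, 12.4 and 10.1 cpm against 4.6 and 3.29 cpm (1.57 ± 0.28, adjusted p 0.0196). Neither overlapped between treatments. The median of the Ifit, Oas and Mx genes was 1.14 with 11 of 11 above 0, and that of the GBP and IRG genes was -0.14 with 7 of 14 above 0. Gbp2 was at 69.7, 37.5 and 41 cpm after MC903 and 86.7 and 57.8 cpm after ethanol (-0.54, adjusted p 0.418). Igtp was at 12.6, 7.53 and 7.94 cpm against 22.7 and 12.4 cpm (-0.89, adjusted p 0.208). Both genes overlapped, and their ethanol levels lay above those of uninjected wild-type ethanol skin of day 8, which reached 34.9 cpm for Gbp2 and 7.76 cpm for Igtp, a difference in level that was not tested. The count of 2 was 0 without MC903 replicate 1 or ethanol replicate 2, and 1 without MC903 replicate 2 or 3. Marker sums of other cells moved in these libraries as well. The T cell sum was 20.1 to 28.1 cpm after MC903 and 37.9 to 49.6 cpm after ethanol, with 1 of 8 markers called lower, and the neutrophil sum was 20.7 to 30.9 cpm against 10.3 to 14.2 cpm. Their part in the result was not tested.

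At day 12 in TSLPR KO skin, 16 of 43 genes rose and none fell, where 5.41% of all tested genes rose, with a median of 0.63. The 16 were 7 Ifit, Oas and Mx genes, 6 other effectors, 2 sensors and Irf7, and none was a GBP or IRG gene. Isg15 was at 75.3, 34.4, 39.2 and 60.6 cpm after MC903 and 5.76, 13.3 and 7.35 cpm after ethanol (2.44 ± 0.33, adjusted p 0.00274). Ifit1 was at 87.9, 41.1, 32.4 and 56.5 cpm against 9.16, 16.1 and 8.86 cpm (2.12 ± 0.34, adjusted p 0.00564). Oas2 was at 22.2, 16, 11.4 and 16.9 cpm against 2.65, 4.84 and 4.15 cpm (1.91 ± 0.28, adjusted p 0.00375). Each lay fully above its ethanol libraries, as did Oasl2 (2.09 ± 0.41, adjusted p 0.014), Ifi44 (3.07 ± 0.60), Irf7 (1.56 ± 0.35) and Zbp1 (1.21 ± 0.27). The Ifit, Oas and Mx genes had a median of 1.86, against -0.17 for the GBP and IRG genes, of which 5 of 14 were above 0. Igtp was at 60.7, 40.6, 30.1 and 43.9 cpm against 40.8, 59.3 and 26.6 cpm (-0.09 ± 0.25, adjusted p 0.86). Iigp1 was at 86.8, 51.5, 40.7 and 38.7 cpm against 53.8, 84.9 and 37 cpm (-0.25 ± 0.28, adjusted p 0.638). Gbp2, at 277, 131.5, 82.8 and 143 cpm against 67, 98.4 and 46.8 cpm, overlapped and did not pass (1.02 ± 0.37, adjusted p 0.115).

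The levels of the 2 families in the day 12 knockout skin can be read by library. The mean of the Ifit, Oas and Mx genes was 3.32 to 4.48 after MC903 and 2.32 to 2.82 after ethanol, on the log2(cpm + 0.5) scale. The mean of the GBP and IRG genes was 4.29 to 5.26 after MC903 and 4.26 to 5.05 after ethanol, so that ethanol libraries reached levels near those of MC903 libraries. Antigen-processing genes sat with the latter, with a median log2 fold change of 0.06. Psmb8 was at 91.2, 53.4, 78.2 and 64.1 cpm against 63, 88.9 and 34.8 cpm (0.07 ± 0.24), and Tap1 had a log2 fold change of 0.06 ± 0.23. Irf1 did not pass either (-0.28, adjusted p 0.237). Ifng was at 0.456, 0.363, 0.246 and 0.341 cpm against 0.45, 0.681 and 0.256 cpm in these libraries, with full overlap. Ifngr1 fell by 0.60 ± 0.15 and Socs3 rose by 1.23 ± 0.20, and no other pathway gene was called. The count of 16 became 8 without ethanol replicate 1. Wild-type skin of day 12 was not analysed here, so that day and genotype cannot be told apart.

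**Figure D5:**
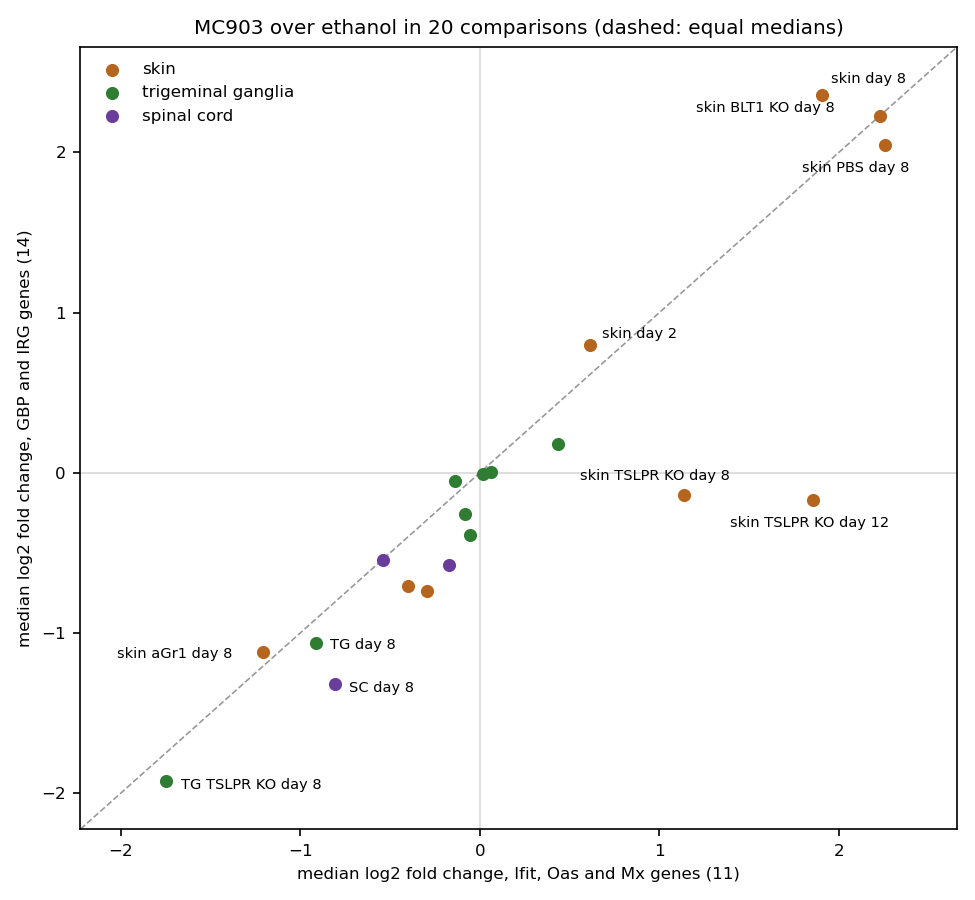
Median log2 fold change of MC903 against ethanol over 11 Ifit, Oas and Mx genes (horizontal) and over 14 GBP and IRG genes (vertical), with a point for each of 20 comparisons coloured by tissue and a dashed line where both are equal. TSLPR KO skin at day 8 (1.14 and -0.14) and day 12 (1.86 and -0.17) lie far below the line, and wild-type (1.91 and 2.36) skin of day 8 lies above it.

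The difference in MC903 effect between TSLPR KO and wild-type skin at day 8 was tested for each gene. None of 43 was called, where 0.177% of all tested genes were. At an unadjusted p under 0.05 there were 24, against 3460 of 27120 tested genes, and DESeq2 called 7, against 431. The median difference was -2.22 for the GBP and IRG genes and -0.55 for the Ifit, Oas and Mx genes. The smallest adjusted p belonged to Ifi47, an IRG gene (-3.07 ± 0.79, adjusted p 0.142), and Gbp2 followed (-3.86 ± 1.02, adjusted p 0.153). With cohort B alone as the wild-type arm, the medians of the families were -1.33 and 0.49, so that the median of the Ifit, Oas and Mx genes turned above 0.

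In BLT1 KO skin at day 8 the rise had the same direction as in wild-type skin and the MC903 libraries lay closer together. It took in 41 of 43 genes, where 14.1% of all tested genes rose, with a median of 1.89. None of the 43 overlapped between treatments, and the share of all tested genes without overlap was not counted. Ifit2 and Gbp3 did not pass. Ifit1 was at 59.4, 73.8 and 64.1 cpm after MC903 and 8, 7.76 and 6.79 cpm after ethanol (3.10 ± 0.16, adjusted p 1.04e-05). Gbp2 was at 565, 462 and 603 cpm against 49.3, 68.9 and 40.7 cpm (3.33 ± 0.21, adjusted p 2.5e-05). Oasl2 was at 134, 130 and 111.5 cpm against 17.3, 13.9 and 12.6 cpm (3.07 ± 0.15, adjusted p 9.84e-06). The MC903 libraries of Iigp1 lay at 167, 160 and 162 cpm and those of ethanol at 20.7, 28.5 and 12.2 cpm (2.96 ± 0.27). Socs1 rose by 3.69 in the same libraries, and the NK cell marker sum was 12.5 to 14.8 cpm against 4.49 to 6.42 cpm. The T cell sum overlapped, at 28.9 to 36.6 cpm against 36.2 to 41.6 cpm. So did the neutrophil sum, at 47.4 to 83.5 cpm against 17.9 to 126.8 cpm. The difference from wild-type was called for none of 43 genes, where 6.95% of all tested genes were called. None of the 43 was at an unadjusted p under 0.05, against 5991 of 27679 tested genes. DESeq2 called none of them, against 3009. The differences ran from -0.39 to 0.56 with standard errors such as 0.65 for Rsad2 (0.56, adjusted p 0.677), and a difference of that size was not detectable with these libraries.

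Trigeminal ganglia and spinal cord were not painted, and in uninjected mice at day 8 none of the 43 genes rose in either. Among ethanol libraries of uninjected wild-type mice at day 8, trigeminal ganglia had higher levels than skin for 20 genes and lower levels for 5, where 28.9% and 31.7% of all tested genes were, with a median log2 difference of 0.77. Ifit1 was the most different (4.05 ± 0.61), followed by Oasl2 (3.03 ± 0.35), and Tap1 was lower by a log2 difference of -1.72 ± 0.22. Spinal cord was higher for 5 genes and lower for 32, where 32% and 33.8% were, with a median of -1.11. Ifit3b (1.60 ± 0.24) and Ifit3 (1.40) were higher there, and Tap1 (-3.74 ± 0.18) and Mx1 (-3.09) lower. Per kb of exon, the highest mean levels of the 43 genes in ethanol libraries were those of Gbp2 in skin (10.98 cpm per kb), Ifit1 in ganglia (22.9 cpm per kb) and Ifit3 in spinal cord (7.18 cpm per kb). The ganglia values rested on ethanol replicate 3 of cohort B. Without it Ifit1 was at 9.48 cpm per kb, below Gbp2 (16.7 cpm per kb) and Ifit3 (9.88 cpm per kb), the log2 difference of Ifit1 from skin was 2.86 ± 0.29, and the median difference over the 43 genes was 0.44, with 15 higher and 6 lower. The lowest mean level in skin was that of Mx2 (0.294 cpm per kb). Painting sites differ between spinal cord and the other tissues, so that tissue and site cannot be told apart. Skin and ganglia libraries may share animals, and the fit treated them as independent samples.

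Trigeminal ganglia hold the cell bodies of the neurons that serve the cheek, and sensory neuron markers summed to 3200 to 5005 cpm in the uninjected day 8 libraries. No gene was called at day 1 or day 2, where 0% of all tested genes were, or at day 5, where 0.00823% were. At unadjusted p under 0.05 there were 0, 1 and 3 genes at these days, against 2034 of 25319, 1527 of 24092 and 938 of 24300 tested genes. DESeq2 called none of the 43 at any of these days. Gbp2 at day 5 was at 20.9, 24.1 and 14.5 cpm after MC903 and 31.7, 31.2 and 26.9 cpm after ethanol, apart but not past the threshold (-0.55 ± 0.21). Ifit1 at day 2 was at 17.3, 16.1 and 17.9 cpm against 23.7 and 34.6 cpm (-0.77 ± 0.19, adjusted p 0.725). Leaving out ethanol replicate 2 at day 2 gave 5 called genes, with the lone ethanol library assumed to vary as the MC903 libraries did.

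At day 8 in ganglia of uninjected mice all 43 log2 fold changes were below 0, with a median of -0.87, and 3 genes fell, where 0.0352% of all tested genes did. The 3 were Gvin1, a large interferon-induced GTPase, Gbp9 and Parp14, a mono-ADP-ribosyltransferase. Gvin1 was at 3.38, 3.74, 5.34, 4.54 and 4.65 cpm after MC903 and 6.65, 8.55, 6.65, 10.5 and 8.51 cpm after ethanol, without overlap (-0.93 ± 0.17, adjusted p 0.0775). Gbp9 was at 1.71, 2.91, 3.07, 3.42 and 3.22 cpm against 4.44, 7.21, 5.64, 6.07 and 10.3 cpm, also without overlap (-1.24 ± 0.23, adjusted p 0.0796). Parp14 overlapped slightly (-0.57 ± 0.11, adjusted p 0.098). Ifit1 shows the library that stood apart, ethanol replicate 3 of cohort B. It was at 10.4, 14.6, 19.1, 22.9 and 20.4 cpm against 15.5, 32.3, 34.2, 18.7 and 204 cpm (-1.61 ± 0.51, adjusted p 0.555). Without that library 0 genes were called and the median was -0.54. Another wild-type library, ethanol replicate 2 of cohort B, was at 0.0293 cpm of Irf7 against 1.5 to 20 cpm in the other 9, and 0.117 cpm of Crlf2, inside the TSLPR KO range. Without it 8 genes were called. Leaving out ethanol replicate 1 of cohort B gave 5 called genes, MC903 replicate 1 of cohort B gave 1, and each of the other libraries gave 0.

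PBS-injected mice gave the opposite sign in ganglia, a difference from uninjected mice that was not tested. In the PBS-injected mice 11 genes rose and none fell, where 1.91% of all tested genes rose, and all 43 were above 0 with a median of 0.40. Oasl2 was at 69.7, 56.3, 53.3 and 59 cpm after MC903 and 32.8, 32.4 and 40.3 cpm after ethanol (0.75 ± 0.10, adjusted p 0.00144). Stat2 was at 69.9, 62.1, 61.3 and 65.7 cpm against 50, 46.2 and 49.1 cpm (0.42 ± 0.06, adjusted p 0.00305). Ifit1 was at 28.5, 18.4, 17.3 and 23.4 cpm against 10.2, 9.33 and 14.7 cpm (0.93 ± 0.18, adjusted p 0.0177). These 3 did not overlap, and the others called were Irgm1 (0.60), Irgm2 (0.46), Igtp (0.42), Ifi47 (0.64), Psmb8 (0.66), Bst2 (0.65), Irf9 (0.51) and Irf7 (0.90). The count of 11 was 5 and 7 without MC903 replicates 1 and 3, and 4 and 3 without ethanol replicates 1 and 2. In aGr1-injected mice 4 genes fell, where 1.01% of all tested genes did, with a median of -0.34. They were Gbp2, at 5.27, 7.2, 7.32 and 6.61 cpm against 12.8, 9.69, 10.3 and 14.3 cpm (-0.82 ± 0.16, adjusted p 0.0253), Gbp3 (-0.95 ± 0.18), Usp18 (-1.09 ± 0.25) and Ifit3 (-0.54 ± 0.13), all without overlap. The count of 4 was 2 without MC903 replicate 4 and 1 without ethanol replicate 3. In the same libraries the sum of 3 microglia markers was 8.9 to 21.67 cpm after MC903 and 21.72 to 33.5 cpm after ethanol, and that of 4 NK cell markers was 0 to 0.243 cpm against 0.334 to 0.611 cpm, and their part was not tested. The effect in aGr1-injected mice was not called different from that in uninjected mice for any gene, where 0% of all tested genes were. At an unadjusted p under 0.05 there were 6 of the 43, against 1709 of 27015 tested genes, and DESeq2 called none of the 43.

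In TSLPR KO ganglia no gene was called at day 8, where 0% of all tested genes were, or at day 12, where 0.304% were. At an unadjusted p under 0.05 there were 26 genes at day 8, against 1886 of 23402 tested genes, and DESeq2 called 11, against 150. The median at day 8 was -1.46, and the difference rested on ethanol replicate 2. Ifit1 was at 13.7 and 19.9 cpm after MC903 and 23.9 and 132.8 cpm after ethanol, and Gbp2 at 15.3 and 22.7 cpm against 28.2 and 115.5 cpm. MC903 replicate 1 stood apart in other ways, with 13.19% ambiguous reads against 2.32 to 2.40% in the other 3 libraries and a neutrophil marker sum of 88.4 cpm against 7.19 to 10.3 cpm. Without MC903 replicate 1 the median was -1.59 and no gene was called. Without ethanol replicate 2 the median was -0.32 and no gene was called, and without ethanol replicate 1 or MC903 replicate 2 there were 6 and 3 called genes. A lone library in an arm was assumed to vary as the other arm did. The knockout effect was not called different from the wild-type effect for any gene, where 0% of all tested genes were. At an unadjusted p under 0.05 there were 4 genes, against 2234 of 26576 tested genes, and none of the members was called by DESeq2. At day 12 the median was 0.10. There 4 genes were at an unadjusted p under 0.05, against 1874 of 25969 tested genes, and DESeq2 called 1, against 224. Ifit1 was at 41.2, 19.6, 17 and 23.3 cpm against 10.7, 33, 17 and 18.4 cpm (0.39 ± 0.33, adjusted p 0.847), with the groups overlapping.

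The spinal cord of uninjected mice painted on the back showed a fall. At day 8, 22 of 43 genes fell with MC903 and none rose, where 7.14% of all tested genes fell, with a median of -0.81. The GBP and IRG genes made up 11 of the 22, with a median of -1.32, and the Ifit, Oas and Mx genes 6, with a median of -0.81. Gbp2 was at 3.57, 3.02, 3.94 and 2.69 cpm after MC903 and 9.86, 12.4, 10.5, 10.8 and 10.2 cpm after ethanol (-1.71 ± 0.14, adjusted p 3.42e-06). Irgm2, a regulator of other IRG proteins, was at 2.23, 3.2, 2.17 and 1.71 cpm against 6.31, 5.31, 6.08, 5.94 and 6.68 cpm (-1.38 ± 0.18, adjusted p 0.00022). Ifit3 was at 4.74, 6.7, 7.13 and 6.14 cpm against 9.92, 15.8, 12.7, 12.5 and 11.7 cpm (-1.02 ± 0.15, adjusted p 0.000597). In each of these genes every MC903 library lay below every ethanol library. Oasl2 was at 2.75, 3.22, 3.25 and 1.68 cpm against 4.08, 8.35, 5.81, 5.82 and 6.16 cpm (-1.15 ± 0.21, adjusted p 0.00296). Tgtp1 had the largest fall, from 0.469, 0.569, 0.795, 1.04 and 0.773 cpm to 0.104, 0.138, 0.0985 and 0.0317 cpm (-2.87 ± 0.46), at levels of few counts. Irf1 fell by 0.61, while Stat2 (-0.02 ± 0.15), Tap1 (-0.07 ± 0.24) and Ifit2 (0.15 ± 0.10) did not pass. Ethanol replicate 1 had no counts of Oas2, Mx1, Ifi44 or Oasl1 and a mean over the 43 genes of 1.33, against 1.83 to 2.04 in the other ethanol libraries and 0.97 to 1.29 after MC903. Without it 31 genes fell, with a median of -0.91. The count was 13, 14 and 14 without MC903 replicates 1, 2 and 4, and 14 without ethanol replicate 2.

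Markers of resident cells fell with these genes in spinal cord. All 3 microglia markers fell in uninjected mice, from a sum of 79.95 to 92.5 cpm to 15.6 to 44.7 cpm, 2 of 3 endothelium markers fell, from 28.4 to 46.3 cpm to 20.3 to 25.1 cpm, and 3 of 7 macrophage and 3 of 4 glia markers fell too. The interferon pathway genes Ifnar2 (-0.59), Tmem173, the adaptor STING (-1.16), and Irf8, a factor of myeloid cells (-0.80), were lower as well. The part of these markers in the result was not tested.

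In aGr1-injected mice 16 genes of spinal cord fell, where 6.79% of all tested genes did, with a median of -0.40, and 10 of the 16 were GBP and IRG genes. Gbp2 ran from 1.9 to 4.12 cpm with a median of 2.61 cpm in 8 MC903 libraries and from 3.22 to 6.98 cpm with a median of 5.98 cpm in 6 ethanol libraries (-1.04 ± 0.16, adjusted p 0.000315). Gbp3 ran from 2.22 to 3.38 cpm against 3.47 to 5.94 cpm and did not overlap (-0.80 ± 0.12, adjusted p 0.00018). Stat2 had a small and even fall, from 27.8 to 31.8 cpm to 23.2 to 26.3 cpm (-0.25 ± 0.04, adjusted p 0.000579). The groups of Stat2 and Gbp3 were apart, while those of Gbp2 overlapped at their edges. Oasl2 was at 6.1 to 10.7 cpm against 5.29 to 9.59 cpm (-0.09 ± 0.12, adjusted p 0.71). The microglia marker sum fell here too, from 79.6 to 89.3 cpm to 32.2 to 66.5 cpm. Compared with uninjected mice, the effect was higher in 1 gene, where 0.125% of all tested genes were higher. The gene was Oasl2 (1.02 ± 0.24, adjusted p 0.0418), and Usp18 (1.23 ± 0.30, adjusted p 0.0611) and Irgm2 (0.76 ± 0.19, adjusted p 0.0651) were next. That count became 0 without MC903 replicate 4 or ethanol replicates 2 to 5 of the uninjected mice, or without MC903 replicates 1, 3, 4, 5, 6 or 8 or ethanol replicates 1, 3, 4, 5 or 6 of the aGr1 mice. It became 2 or 3 without MC903 replicates 2 or 3 or ethanol replicate 1 of the uninjected mice, or MC903 replicates 2 or 7 of the aGr1 mice. In PBS-injected mice no gene was called, where 0% of all tested genes were. At an unadjusted p under 0.05 there were 5, against 1571 of 24573 tested genes, and DESeq2 called none of the members. Gbp2 was at 2.54 and 3.43 cpm against 5.14 and 3.94 cpm there (-0.62 ± 0.26), and leaving out MC903 replicate 2 gave 12 called genes.

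The tissues were compared at day 8 in uninjected wild-type mice. The MC903 effect was lower in ganglia than in skin for 40 of 43 genes, where 4.94% of all tested genes were lower, with a median difference of -2.70. It was lower in spinal cord than in skin for 38 of 43, where 8.68% were, with a median of -2.69. Oasl2 differed by -3.47 ± 0.65 between ganglia and skin (adjusted p 0.00167) and by -3.96 ± 0.62 between spinal cord and skin (adjusted p 0.000139). Gbp2 differed by -5.06 ± 0.81 between spinal cord and skin. Oasl1 and Ifit2 were without a called difference in both, together with Mx2 in ganglia and with Xaf1, Mx1 and Tap1 in spinal cord. These comparisons use the same skin libraries and are not independent of each other. The study describes taking cheek skin and the ganglia of the same side from treated mice. Cohort A tags carry matching numbers (skin1 and TG1). Skin and ganglia may therefore share animals, and the fit treated them as independent samples. A ganglia library is tagged TG6_7, where skin has libraries tagged skin6 and skin7.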

How the data were processed

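The authors sequenced poly(A) RNA, aligned reads to mm10 with TopHat and Bowtie2 and counted them with HTSeq, and the deposited values are raw counts per Ensembl gene without normalization. Of 46078 identifiers, 45143 matched GENCODE M21 symbols. HTSeq's tallies of reads on no gene (6.15 to 21.5% of the reads tallied) and of ambiguous reads (1.77 to 13.2%) were left out of library totals. The strand setting is not given, so reads of overlapping genes on opposite strands (Tap1 and Psmb9) cannot be told apart, and close copies (Tgtp1 and Tgtp2, Ifit3 and Ifit3b, Igtp and Irgm2) may share reads. Of 162 libraries, 18 were left out: uninjected wild-type libraries of day 12.

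MC903 was compared with ethanol within each tissue, genotype, injection and day by the quasi-likelihood test of edgeR 4.0.16 (R 4.3.3, limma 3.58.1) with TMM scaling, on genes with at least 10 counts over the libraries fitted, with Benjamini-Hochberg adjustment over all genes tested. The study names DESeq for this step. A cohort term was used where both label styles of day 8 were present. Levels in cpm were computed from the counts with the total on genes and no TMM factor. Differences between effects are interaction terms of fits on the libraries concerned, and errors are standard errors. Alternatives were DESeq2 1.42.0, RLE size factors, no filter on low counts, the replicate number as a block, single cohorts, PBS-injected mice as the control arm, and leaving out each library. The deviations of same-numbered libraries from their group means did not correlate at over 0.1 in every pair of any comparison with 3 or more pairs, so the numbers were not used as pairs. No libraries of a group had identical counts. Where the labels do not say that samples are separate animals, p-values measure the spread between samples, which may be technical. The fit was tested on simulated data. Some results on other genes of the pathway are not reported here.

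The 43 genes, the other gene lists and the rule for named genes were chosen with earlier results of these data known. Under that rule any of the 43 may be named. Values per library are given for representatives of each role (Ifit1, Ifit3, Oas2, Oasl2, Mx1, Gbp2, Gbp5, Gbp7, Igtp, Iigp1, Irgm1, Irf1, Irf7, Stat2, Ddx58, Zbp1, Tap1, Psmb8, Psmb9, Isg15, Usp18, Rsad2 and Bst2), all of them in uninjected skin of day 8 and fewer elsewhere, and for called genes with the smallest p of each role. Klk1 was in a list of plasmacytoid dendritic cell markers, and it and Ltf were singled out after their values were seen.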

Additional observations from a re-analysis of the deposited data

Results flagged for a closer look

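In groups of 4 to 10 libraries, the highest or lowest library stood apart from its group for the mean log2(cpm + 0.5) of a gene list in 3 of 60 group and list pairs, and chance marks about 1 in 20. For the Ifit, Oas and Mx genes in trigeminal ganglia of uninjected wild-type mice, ethanol replicate 2 of day 1 was at 3.34 with the nearest of 4 libraries at 2.39, and ethanol replicate 3 of cohort B at day 8 was at 4.23 with the nearest of 5 at 2.88. For the GBP and IRG genes, MC903 replicate 4 in the spinal cord of uninjected mice was at 0.84 with the nearest of 4 at 1.16.

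Differences of the MC903 effect between groups were called by an interaction term in edgeR's quasi-likelihood test for 41 of the 43 genes between aGr1-injected and uninjected skin and for 1 gene between the same groups of spinal cord. In uninjected wild-type skin the effect at day 8 differed from day 5 in 11 genes and from day 1 in 39. At day 8 it differed between ganglia and skin in 40 genes and between spinal cord and skin in 38.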

How the results depend on the processing

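Counts of the 43 genes past the threshold are compared here. Over 461 calls of a gene in a comparison, 7795 alternative values were made, of which 6907 stayed past the threshold in the same direction, 888 did not, and none reversed. DESeq2 gave 1 gene (0 by edgeR) in day 2 skin, 14 (6) in day 5 skin, 34 (17) in PBS skin, 5 (2) in TSLPR KO skin of day 8, 7 (3) in day 8 ganglia, 8 (4) in aGr1 ganglia, 11 (0) and 1 (0) in TSLPR KO ganglia of days 8 and 12, 7 (0) for the TSLPR KO difference in skin, 4 (1) for the aGr1 difference in spinal cord and 35 (11) for day 8 against day 5. PBS-injected mice as control arm gave 19 (41) and 0 (1) for the aGr1 differences in skin and spinal cord. Of all tested genes, 62 (1269) and 0 (153) were called in these fits. In ganglia of day 8, both cohorts without a cohort term gave 0 (3), and cohort B alone gave 0 there and 23 (39) in skin. As control arm for the BLT1 KO difference, cohort B alone gave 4 (0). Without a filter on low counts, TSLPR KO skin of day 8 gave 6 (2), ganglia of day 8 gave 26 (3), TSLPR KO ganglia of day 8 gave 28 (0), and the aGr1 and TSLPR KO differences in ganglia gave 1 (0) and 9 (0). In the comparisons listed for DESeq2 and for no filter, more of all tested genes were called too. DESeq2 called 264 (0) of all tested genes in day 2 skin and 2087 (973) in PBS skin.

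Same replicate numbers are not known to pair libraries. In fits blocked on the replicate number (replicate block), the counts were 4 (0) in day 2 skin, 21 (35) in aGr1 skin, 6 (2) and 1 (16) in TSLPR KO skin of days 8 and 12, 23 (0) in TSLPR KO ganglia of day 8, 11 (22) in uninjected spinal cord, 0 (1) for the aGr1 difference in spinal cord and 0 (11) for day 8 against day 5. In PBS spinal cord same-numbered libraries correlated at -0.164, and the crossed pairing, added after the data were seen, gave 4 (0).

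Leaving out 1 library gave these ranges, written lowest to highest. Skin had 7 to 22 at day 1, 0 to 0 at day 2, 1 to 11 at day 5 and 29 to 40 at day 8, 0 to 39 with PBS, 16 to 42 with aGr1, 0 to 2 and 8 to 23 in TSLPR KO of days 8 and 12, and 39 to 42 in BLT1 KO. Ganglia had 0 to 5 at day 2, 0 to 8 at day 8, 3 to 14 with PBS, 1 to 5 with aGr1 and 0 to 6 in TSLPR KO of day 8. Spinal cord had 13 to 31 without injection, 0 to 12 with PBS and 12 to 22 with aGr1. The differences had 34 to 43 (aGr1, skin), 0 to 3 (aGr1, spinal cord), 0 to 22 (day 8 against day 5), 36 to 41 (day 8 against day 1), 35 to 42 (ganglia against skin) and 36 to 40 (spinal cord against skin). The cause of these shifts was not tested. With 2 or 3 libraries in an arm, p-values rest on few degrees of freedom, and genes of spinal cord at 3 counts or fewer in a library are near the limit of detection.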
